A study of Mus musculus with 2 samples.

Results

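The genes described here build the junctions and the apical-basal polarity of epithelial cells: claudins and other tight junction proteins, polarity proteins, the adherens junction, desmosomes, gap junctions, and Epcam with the matriptase protease system. They were compared in mammary epithelial cells of Cuzd1-null mice and of their Cuzd1-heterozygous littermates. Members were a list of 40 gene symbols, and a probe set belonged to a member if that was its single symbol in the platform's annotation. All 40 had a probe set, out of 18193 genes on the array, and together they had 87 of the 45037 non-control probe sets.

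The null group was 1 array of Cuzd1-knockout cells and the heterozygous group was 1 array of cells with a single disrupted Cuzd1 allele, so no wild-type cells were measured. Each array held pooled RNA from 5 mice on a mainly C57BL/6 background, with glands taken on day 18 of pregnancy after mating to fertile males. The cells came from inguinal glands digested with hyaluronidase and collagenase, and no sort was recorded. The series' description reports severe defects of alveolar development and lactation in null glands, and the arrays ask which transcripts differed there. With 1 array per genotype there was no replicate error and no test, and each difference below is one between 2 RNA pools. In such bulk RNA, fewer cells of a type and less RNA per cell cannot be told apart.

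Tight junctions seal the space between neighbouring epithelial cells near their apical side. Claudins form the strands, occludin and the other MARVEL proteins join them, and the ZO proteins tie them to actin. Adherens junctions and desmosomes hold cells together through cadherins bound to catenins, plakoglobin and plakophilins, and the Par and Crumbs complexes set the apical border. In the mammary gland the tight junctions of alveolar cells are leaky during pregnancy and close around birth, when milk secretion starts.

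Values are MAS5 signals, in linear intensity units. Each array was floored at its median over non-control probe sets, which was 32.5 units on the null array and 34.2 units on the heterozygous array. Where a gene had several probe sets, the brightest (by the mean of the arrays) stood for it, and it was chosen again after each rescaling. Measured means above the floor on at least 1 array. Ratios are log2 of null over heterozygous, so a positive ratio means higher in the null pool. For scale, the robust SD of the ratios among all genes of similar signal ran from 0.19 to 0.44 for the members. It holds real differences as well as noise and is not a replicate error.

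Scaling and cell content set limits on every direction. The trimmed mean was 150.0 units on each array. The 9 hybridization control probe sets, added in equal amounts by the usual protocol, had a median ratio of -0.23, with a range of -0.34 to 0.04. The 12 poly-A control probe sets, not used for scaling, had a median of -0.26, with a range of -0.54 to -0.06. Rescaling to the hybridization controls moved the median ratio of all measured genes to 0.26, against 0.03 as deposited. A probe set with a ratio between -0.23 and 0 thus turned positive. Luminal markers were bright in both pools, led by Krt18, a keratin, with 10003 units in null cells and 8581 units in heterozygous cells, and Cd24a, a surface protein, with 8627 units in null and 9794 units in heterozygous cells. The 10 measured of 11 luminal markers had a median ratio of -0.15 (0.08 on the hybridization-control scale), with Prom1 below the floor. Markers of other cells were also above the floor. The summed signal of 8 fibroblast markers was 11252 units in the null pool and 7428 units in the heterozygous pool. For 8 endothelial markers it was 2230 units in the null pool and 1582 units in the heterozygous pool. For 8 myeloid markers it was 5556 units in the null pool and 4178 units in the heterozygous pool. All 8 fibroblast and all 8 endothelial markers and 7 of the 8 myeloid ones were higher in the null pool, and no marker of these lists was at 0. Their brightest members were Col3a1 and Dcn (0.41 and 0.66), Esam and Pecam1 (both 0.37), and Lyz2 and Csf1r (0.43 and 0.50). Adipocyte markers had a median of -0.30 over 4, with -0.15 for Fabp4 and at least 2.05-fold lower for Adipoq, whose null signal was below the floor. Cuzd1 itself did not check the labels, at 33.98 units in null cells and 32.4 units in heterozygous cells, close to the floor on both arrays.

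Most junction and polarity genes had similar signals in both pools. Of the 40 members, 38 were measured, all of them on both arrays, and Cldn2 and Cldn10, which encode channel-forming claudins, were below the floor on both. The median log2 ratio of the 38 was -0.02, with quartiles of -0.22 and 0.18, beside 0.03 for all 11893 measured genes, with quartiles of -0.18 and 0.23. There were 17 members above 0 and 21 below 0, that is 44.7% above 0 against 54.0% of all measured genes. Rescaled to the hybridization controls, 29 were above 0 and the median of the 38 was 0.22. The 29 include Spint2, whose brightest probe set changed with this scaling. No member was 2-fold apart in either direction, where 1.12% of all measured genes were higher and 1.03% lower by that much (2.15% together). At least 1.5-fold apart were 4 members, or 10.5%, a share near the 10.8% of all measured genes. These were Cldn1, higher in the null pool (as were 5.83% of all genes), and Cdh3, Pkp1 and Dsp, lower (4.93% of all genes).

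The members' ratios were also set against the spread of genes of like signal. The ratio was smaller than 1 robust SD of its signal bin for 23 members, or 60.5%, against 66.9% of all measured genes. It exceeded 2 robust SDs for 6 members, or 15.8%, against 7.73% of all measured genes. The 6 were Cldn1 on the high side and Pkp1, Dsp, St14, Marveld3 and Pard6b on the low side. Under all 4 scalings tried (as deposited, quantile, hybridization controls and a median ratio of 0), 15 members kept a positive ratio and 9 a negative one. The other 14 changed sign with the scaling, among them Spint2, whose brightest probe set also changed. The scalings challenged the signs unequally. The hybridization-control scale moved a ratio of -0.23 to 0, while the median scale moved one of 0.03 to 0. Keeping a positive ratio at all 4 scalings was thus easier than keeping a negative one.

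**Figure D1:**
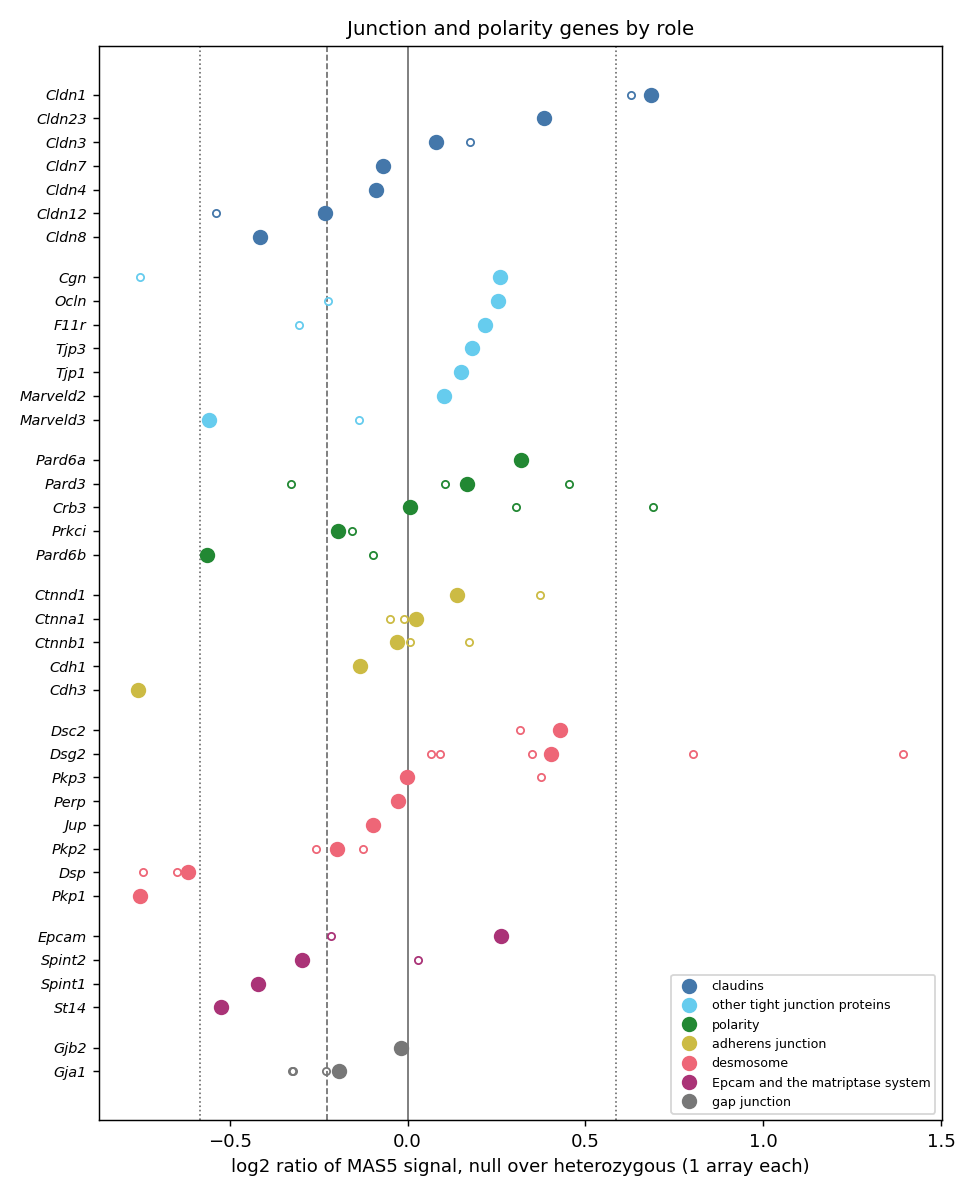
Log2 ratio of MAS5 signal, null over heterozygous, for the 38 measured members grouped by role. Large points are the brightest probe set of each gene and small open points its other measured probe sets. The solid line is 0, the dotted lines mark 1.5-fold and the dashed line at -0.23 is where 0 lies after rescaling to the hybridization controls. Cldn1 is at 0.68, and Cdh3, Pkp1 and Dsp lie beyond the dotted line on the left.

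Probe sets of the same gene gave a second reading of the same pools. Of the 22 members with several measured probe sets, 6 had all of them above 0, 7 had all below 0 and 9 had them on both sides as deposited. For 21 members the brightest and the next probe set both passed the floors on both arrays, and their ratios had a robust SD of 0.11 per probe set, against 0.21 over 4722 genes. The members and these genes were not matched for signal, with which the spread of ratios changes. Probe sets with the suffix _s_at or _x_at can bind other transcripts, and shared RNA means that agreement between probe sets does not replace a replicate.

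Promoters of 4 members are shown because these genes carry the differences described below and had an entry. Cldn1 had the highest ratio, Dsp was the lowest member with an entry, Pard6b was the lowest polarity gene and Spint1 belongs to the matriptase system. Each is 300 bases of RefSeq sequence (GRCm38.p6) from 250 bases before to 50 after the gene's start, 5′ to 3′ on its strand. Capitals mark GGGCGG, the GC box, and CACCTG, the E-box read by the Snail and ZEB repressors of E-cadherin, on either strand.
Cldn1, chr16:26371790-26372089, minus strand: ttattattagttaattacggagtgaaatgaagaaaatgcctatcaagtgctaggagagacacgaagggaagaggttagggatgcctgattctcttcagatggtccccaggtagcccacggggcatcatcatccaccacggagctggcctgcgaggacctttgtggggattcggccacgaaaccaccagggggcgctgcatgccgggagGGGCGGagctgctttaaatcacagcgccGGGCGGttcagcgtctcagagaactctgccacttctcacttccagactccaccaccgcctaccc
Dsp, chr13:38151044-38151343, plus strand: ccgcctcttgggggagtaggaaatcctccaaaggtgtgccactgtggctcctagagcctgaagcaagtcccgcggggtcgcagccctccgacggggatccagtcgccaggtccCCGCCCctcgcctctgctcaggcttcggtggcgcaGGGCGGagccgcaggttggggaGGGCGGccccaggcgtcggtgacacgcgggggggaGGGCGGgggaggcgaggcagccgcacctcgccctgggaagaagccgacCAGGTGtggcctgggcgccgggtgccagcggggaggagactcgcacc
Pard6b, chr2:168080754-168081053, plus strand: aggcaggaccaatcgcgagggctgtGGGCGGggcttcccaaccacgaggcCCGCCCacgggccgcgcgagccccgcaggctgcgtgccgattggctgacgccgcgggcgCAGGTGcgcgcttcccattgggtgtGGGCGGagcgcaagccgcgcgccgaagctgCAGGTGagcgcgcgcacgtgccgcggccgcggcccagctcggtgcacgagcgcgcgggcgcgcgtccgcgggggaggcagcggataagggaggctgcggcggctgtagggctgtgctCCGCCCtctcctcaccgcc
Spint1, chr2:119237110-119237409, plus strand: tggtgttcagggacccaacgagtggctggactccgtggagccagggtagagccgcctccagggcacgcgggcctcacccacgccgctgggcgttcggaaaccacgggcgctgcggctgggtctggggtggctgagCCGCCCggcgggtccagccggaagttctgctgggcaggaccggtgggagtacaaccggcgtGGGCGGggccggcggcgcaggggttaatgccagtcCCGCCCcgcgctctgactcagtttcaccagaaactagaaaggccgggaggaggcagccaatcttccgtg

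The E-box letters were present once in the Dsp window and 2 times in the Pard6b window, and had 0 matches in the Cldn1 and Spint1 windows. The GC box had 2 matches for Cldn1, 4 for Dsp, 4 for Pard6b and 3 for Spint1. RefSeq promoters were used for 27 of the 40 members. Members on a particular chromosome were left out of this set, while the promoters of that chromosome stayed in the comparison set. The shares with those members included were not tested. Of these 27 members, 12 (44.4%) held the E-box, against 20.03% of 27025 promoters of the same length. The GC box was held by 20 (74.1%), against 35.9%. The median GC content was 61.0% in the members' windows and 52.7% in all windows. The comparison promoters were not selected by gene type. The parts of base composition and of gene type in these shares were not tested. The 12 with an E-box lay on both sides of 0 in the arrays, among them Dsp, Pard6b, Ocln and Epcam. A match is a description of the letters, not of a bound site.

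Claudins, which form the tight junction strands, were mixed. Their median ratio was -0.07 over 7 measured members, with 3 above 0 and 4 below, and 0.16 with 5 above 0 after rescaling to the hybridization controls. Cldn1, a barrier-forming claudin, read 300.2 units in null cells and 187 units in heterozygous cells, 1.61-fold higher. A second probe set, at 296 units in null and 191 units in heterozygous cells, had a ratio of 0.63 beside 0.68, so both measured readings of Cldn1 were higher in the null pool. Its 2 remaining probe sets were below the floor on both arrays. The robust SD at this signal was 0.25. Cldn23 was dim, at 81.1 units in null cells and 62.2 units in heterozygous cells, a ratio of 0.38 within 1 robust SD (0.44).

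The claudins with the strongest signals differed little. Cldn3, a barrier claudin of secretory epithelium, read 5636 units in null cells and 5333 units in heterozygous cells, and its 4 probe sets had ratios of 0.08 to 0.18. Cldn4, the adjacent gene on chromosome 5 and a close relative, read 5775 units in null cells and 6140 units in heterozygous cells, a ratio of -0.09. Cldn7, which binds Epcam, read 1954 units in null cells and 2049 units in heterozygous cells, a ratio of -0.07. The ratios of Cldn4 and Cldn7 turned to 0.14 and 0.16 after rescaling to the hybridization controls.

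Cldn8 and Cldn12 were on the low side at every scaling. Cldn8, a claudin that limits cation passage in the kidney tubule, read 1123 units in null cells and 1498 units in heterozygous cells, 1.33-fold lower in the null pool. Its ratio was -0.42 as deposited and -0.19 after rescaling to the hybridization controls. Cldn12 read 361 units in null cells and 424 units in heterozygous cells, a ratio of -0.23, and -0.54 at its dimmer probe set. That left Cldn12 at -0.00 on the hybridization-control scale.

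The remaining tight junction proteins were slightly higher in the null pool, except Marveld3. Their median ratio was 0.18 over 7 members, 6 of them above 0 at all 4 scalings, but 0.02 when all measured probe sets of a gene were averaged. Ocln, occludin, read 618 units in null cells and 518 units in heterozygous cells (0.25). Its dimmer probe set had -0.22. Marveld2, tricellulin, which seals the corners where several cells meet and whose gene lies next to Ocln, read 423 units in null cells and 394 units in heterozygous cells (0.10).

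The scaffolds and the adhesion receptor of the junction had ratios between 0.15 and 0.26 at their brightest probe sets. Tjp1, the scaffold ZO-1, read 1505 units in null cells and 1356 units in heterozygous cells (0.15). Tjp3, the scaffold ZO-3, read 746 units in null cells and 657 units in heterozygous cells (0.18). Both ratios were within 1 robust SD of genes of like signal. F11r, the adhesion receptor JAM-A, read 1395 units in null cells and 1200 units in heterozygous cells (0.22), with -0.30 at a second probe set that was below the floor in null cells. Cgn, cingulin, which links the scaffolds to the cytoskeleton, read 425 units in null cells and 355 units in heterozygous cells (0.26). Its dimmer probe set gave the opposite sign, at 69.5 units in null cells and 117 units in heterozygous cells (-0.75). For Ocln, F11r and Cgn the direction thus depended on the probe set.

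Marveld3, the remaining MARVEL protein, was lower in the null pool. It read 347 units in null cells and 511 units in heterozygous cells, 1.47-fold lower, against a robust SD of 0.24. The second measured probe set had a ratio of -0.14, which turned positive on the hybridization-control scale, while the brighter one kept -0.33.

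**Figure D2:**
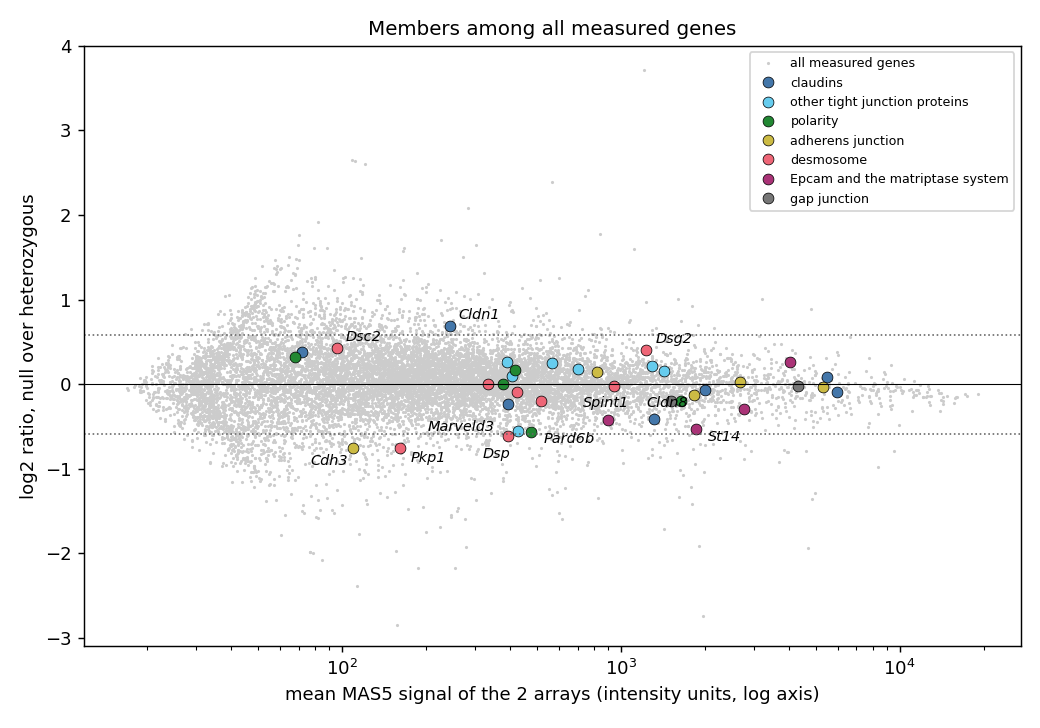
Log2 ratio, null over heterozygous, against the mean MAS5 signal of the arrays (log axis), with all 11893 measured genes in grey and the 38 members coloured by role. Dotted lines mark 1.5-fold. Most members lie inside the grey band, and 11 members with ratios beyond 0.4 in either direction are named.

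Polarity genes had a median ratio of 0.01 over 5 members, 0.23 on the hybridization-control scale, and their lowest member was Pard6b. Pard6b, a Par6 isoform that holds atypical protein kinase C in the apical Par complex, read 384 units in null cells and 568 units in heterozygous cells. That was 1.48-fold lower in the null pool at the brightest probe set, an _s_at set that can bind other transcripts. The other probe set had 386 units in null and 413 units in heterozygous cells, a ratio of -0.10 that turned to 0.13 on the hybridization-control scale. Pard6a, its paralog, was dim, at 75.1 units in null cells and 60.2 units in heterozygous cells (0.32, within 1 robust SD). The paralogs lay on opposite sides of 0, and the difference between them was not tested.

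The partners of Par6 were nearer 0. Prkci, atypical protein kinase C iota, read 1534 units in null cells and 1755 units in heterozygous cells, a ratio of -0.19, and 0.03 after rescaling to the hybridization controls. Pard3, the Par3 scaffold, read 443 units in null cells and 394 units in heterozygous cells (0.17), with its 4 probe sets between -0.33 and 0.45. Crb3, the Crumbs protein of the apical membrane, read 379 units in null cells and 377 units in heterozygous cells at its brightest probe set (0.01). Its other probe sets had 0.30 and 0.69, so the size of the Crb3 ratio depended on the probe set.

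In the adherens junction, E-cadherin and its catenins differed little and P-cadherin was lower in the null pool. Cdh1, E-cadherin, read 1753 units in null cells and 1923 units in heterozygous cells (-0.13 as deposited, 0.09 on the hybridization-control scale). Ctnnb1, beta-catenin, read 5271 units in null cells and 5378 units in heterozygous cells, and its 3 probe sets had ratios of -0.03 to 0.17. Ctnna1, alpha-catenin, read 2698 units in null cells and 2657 units in heterozygous cells (0.02). Ctnnd1, p120-catenin, which holds cadherins at the membrane, read 859 units in null cells and 780.5 units in heterozygous cells (0.14, and 0.37 at its dimmer measured probe set). All 4 of these ratios were within 1 robust SD.

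Cdh3, P-cadherin, the classical cadherin of the myoepithelial layer, had the lowest ratio of all members. It read 81.6 units in null cells and 138 units in heterozygous cells, 1.69-fold lower, with a ratio of -0.76 as deposited and -0.53 on the hybridization-control scale. The robust SD at this low signal was 0.39, and its second probe set was below the floor on both arrays. Its gene lies next to Cdh1 on chromosome 8. Of 9 myoepithelial markers, 6 were lower and 3 higher, with a median ratio of -0.03 (0.19 rescaled to the hybridization controls). Their summed signal was 24526 units in null cells and 26356 units in heterozygous cells, and no marker was at 0. The basal keratins Krt14 and Krt5 had ratios of -0.69 and -0.47, and the contractile genes Acta2 and Tagln, the brightest of the list, had -0.11 and -0.03. The basal transcription factor gene Trp63 had 0.53, with -0.71 to -0.09 at its other probe sets, and Oxtr, the oxytocin receptor, had 0.13, with 1.05 at its other probe set. The part of myoepithelial content in the Cdh3 value was not tested.

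Desmosome genes lay on both sides of 0. The median was -0.06 over 8 members, 0.17 on the hybridization-control scale. The cadherins Dsg2 and Dsc2 were higher in the null pool, the plaque proteins Dsp and Pkp1 were lower, at all 4 scalings, and the other 4 members, among them the plaque proteins Jup, Pkp2 and Pkp3, lay nearer 0.

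Dsp, desmoplakin, which ties the desmosome to keratin filaments, read 312 units in null cells and 478 units in heterozygous cells at the brightest probe set. That was 1.53-fold lower, with a robust SD of 0.24. All 3 probe sets were lower in the null pool, with ratios of -0.62, -0.65 and -0.75, and between -0.52 and -0.39 on the hybridization-control scale. Pkp1, plakophilin 1, an armadillo protein of stratified epithelium, read 120 units in null cells and 202 units in heterozygous cells at its single probe set. It was 1.69-fold lower, with a robust SD of 0.29. Dsp and Pkp1 were thus the lowest members of the desmosome list.

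The desmosomal cadherins of simple epithelium went the other way. Dsg2, desmoglein 2, read 1404 units in null cells and 1062 units in heterozygous cells, 1.32-fold higher. Its 6 probe sets were all higher in the null pool, with ratios from 0.07 to 1.39, the highest at a dim probe set with 105 units in null and 40.1 units in heterozygous cells. Dsc2, desmocollin 2, read 110 units in null cells and 81.6 units in heterozygous cells (0.43), with 0.32 at its second probe set. The robust SDs were 0.23 for Dsg2 and 0.39 for Dsc2.

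Among the remaining desmosome members, Pkp2, plakophilin 2, read 481 units in null cells and 551 units in heterozygous cells. All 3 of its measured probe sets were below 0 as deposited (-0.26 to -0.13), and 2 of them were above 0 on the hybridization-control scale. Jup, plakoglobin, which desmosomes share with adherens junctions, read 410 units in null cells and 439 units in heterozygous cells (-0.10). Perp, a tetraspan desmosome protein, read 936 units in null cells and 953 units in heterozygous cells (-0.03). Pkp3, plakophilin 3, read 335 units on both arrays (-0.00), with 0.38 at its dimmer probe set. The ratios of Jup and Perp turned positive on the hybridization-control scale.

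Markers of skin keratinocytes, a stratified epithelium rich in Dsp and Pkp1, were lower in the null pool too. Of 7 such markers, 5 were measured and all 5 had negative ratios, with a median of -0.86 (-0.63 on the hybridization-control scale, where Dmkn was above 0). Their summed signal was 666 units in null cells and 951 units in heterozygous cells. The dermokine gene Dmkn, with 437 units in null and 471 units in heterozygous cells, was the brightest of them. Krt6a read 52.6 units in null cells and 103 units in heterozygous cells. Krt10, another keratin, read 85.7 units in null cells and 155 units in heterozygous cells. Krt6b was at least 3.43-fold lower, with a null signal of 8.93 units that was below the floor. Krt1 and Sprr1b were below the floor on both arrays. The part of such cells in the Dsp and Pkp1 values was not tested.

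**Figure D3:**
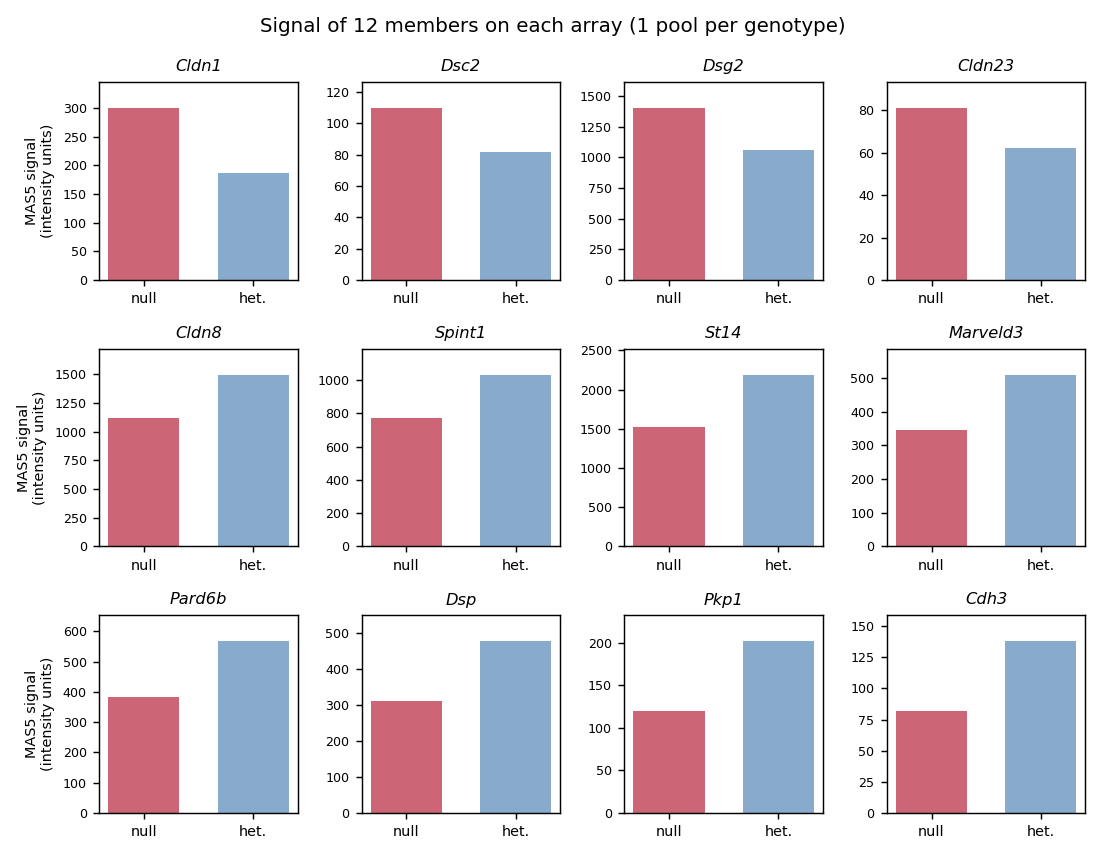
MAS5 signal, in intensity units from 0, of the 12 members with the largest log2 ratios in either direction, ordered from the highest ratio (Cldn1) to the lowest (Cdh3). Each bar is 1 array of RNA pooled from 5 mice, null on the left and heterozygous on the right, with no error bar because there was no replicate. Cldn1, Dsc2, Dsg2 and Cldn23 were higher in the null pool and the other 8 lower, at all 4 scalings.

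The matriptase gene and that of its inhibitor HAI-1 were lower in the null pool, each at its single probe set. Spint2 and Epcam, with several probe sets, depended on the probe set. The list's median ratio was -0.36 over 4 members, -0.17 after quantile normalization and 0.03 on the hybridization-control scale. These shifts were not from scaling alone, because the other Spint2 probe set became the brightest in both. It had 0.07 after quantile normalization and 0.26 on the hybridization-control scale, where the probe set used as deposited had -0.07. St14, matriptase, a membrane serine protease needed for epithelial barriers, read 1522 units in null cells and 2190 units in heterozygous cells. That was 1.44-fold lower, against a robust SD of 0.23. Spint1, which encodes its Kunitz inhibitor HAI-1, read 772 units in null cells and 1034 units in heterozygous cells, 1.34-fold lower. Its ratio of -0.42 was within 2 robust SDs. The ratios of St14 and Spint1 were -0.30 and -0.19 on the hybridization-control scale, so both kept their sign.

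The probe sets of the other members of this list disagreed. Spint2, which encodes the inhibitor HAI-2, had probe sets of nearly equal brightness. One read 2491 units in null cells and 3063 units in heterozygous cells (-0.30), the other 2796 units in null and 2743 units in heterozygous cells (0.03). Epcam, a cell adhesion protein that stabilizes claudin-7 and is itself a matriptase substrate, read 4424 units in null cells and 3689 units in heterozygous cells, 1.20-fold higher. Its dim probe set read 255 units in null cells and 296 units in heterozygous cells (-0.22).

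Gap junction genes, which couple neighbouring cells through connexin channels, were near 0. Gjb2, a connexin of secretory mammary epithelium, read 4282 units in null cells and 4339 units in heterozygous cells (-0.02). Gja1, the connexin that couples myoepithelial cells, read 1414 units in null cells and 1618 units in heterozygous cells (-0.19). All 6 Gja1 probe sets were below 0 as deposited, between -0.32 and -0.19, and 3 of the 6 were above 0 on the hybridization-control scale.

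Other genes of the same structures, from a list of 81, showed a similar spread. Of these, 74 had a probe set and 61 were measured, with a median ratio of 0.03 (0.26 on the hybridization-control scale). At least 1.5-fold higher were 3 and at least 1.5-fold lower 2, beside 5.83% and 4.93% of all measured genes. Amotl2, an angiomotin-like protein of cell junctions, was the 1 gene at least 2-fold apart, at 139 units in null cells and 384 units in heterozygous cells, 2.75-fold lower. Nectin1, an adhesion receptor of adherens junctions, read 94.7 units in null cells and 144 units in heterozygous cells (1.53-fold lower), with -0.23 at its other probe set. Magi1, a junction scaffold, and Jam2, an adhesion receptor of endothelium, had ratios of 0.69 and 0.62, but 0.18 or below at their other probe sets. Jam3, another of these receptors, was below the floor in heterozygous cells, and its null signal of 61.9 units was at least 1.81-fold higher.

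By role, tight junction genes of this second list had a median of 0.21 over 15 members, 11 of them above 0. Their brightest were Cxadr, a virus receptor of tight junctions (-0.32), and Amotl1 (-0.33). Cldn5 and Cdh5, the claudin and the cadherin of endothelium, had ratios of 0.42 and 0.29, with -0.54 at a second probe set of Cdh5. The 8 endothelial markers, Cdh5 included, had a median ratio of 0.37, and the part of endothelial content in these values was not tested. Polarity genes had -0.02 over 13, with -0.02 for Dlg1 and 0.04 for Lin7c, the brightest. Adherens junction genes had 0.04 over 17, with -0.11 for Vcl, vinculin, and 0.01 for Afdn, afadin.

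The other desmosome and hemidesmosome genes had a median of -0.06 over 7, with -0.06 for Itga6, integrin alpha 6, and -0.20 for Plec, plectin, the brightest. In that list the plakin Ppl, periplakin, read 161 units in null cells and 239 units in heterozygous cells, 1.49-fold lower. Evpl, envoplakin, its partner in the cornified envelope, read 80.7 units in null cells and 57.0 units in heterozygous cells (0.50). The other gap junction genes had 0.01 over 4, with 0.16 for Gjb6, a connexin, and -0.42 for Panx1, pannexin 1. Membrane proteases had the lowest median, -0.22 over 5, and 0.00 on the hybridization-control scale. Prss8, prostasin, which acts with matriptase in the epidermis, read 611 units in null cells and 790 units in heterozygous cells (-0.37). Furin, a proprotein convertase, read 348 units in null cells and 378 units in heterozygous cells (-0.12).

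**Figure D4:**
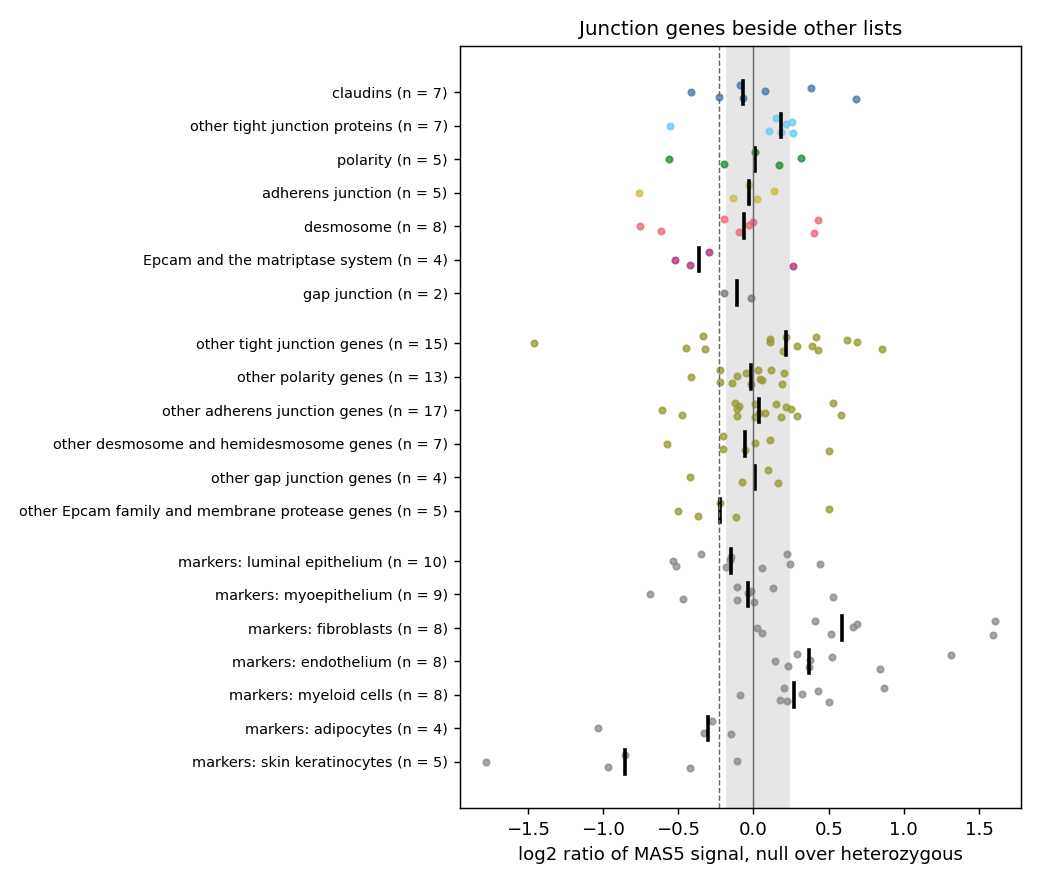
Log2 ratios, null over heterozygous, of the measured genes of each role group of the members (top), of the other junction genes (middle) and of the cell type marker lists (bottom). Points are genes, black bars are medians, the grey band holds the quartiles of all measured genes (-0.18 and 0.23), and the dashed line at -0.23 is 0 on the hybridization-control scale. Fibroblast, endothelial and myeloid markers have medians of 0.59, 0.37 and 0.27, and the role groups lie between -0.36 and 0.18.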

How the data were processed

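RNA from mammary epithelial cells was measured on 3′ expression arrays, 1 array per genotype. Per the submitters' processing notes, the authors used MAS5 and Affymetrix Expression Console (version 1), and the deposited intensity of each probe set is on a linear scale. No genome build is given in the sources used here. Per the labels, RNA of 5 mice was pooled per genotype. Gene symbols came from the platform's annotation, updated through Entrez IDs with the RefSeq table (GRCm38.p6). Floors, log2 ratios, counts and medians were computed with Python 3.11.15, pandas 2.3.3 and numpy 2.4.6, and the procedure was tested on simulated data. The simulation planted only 2-fold differences in genes well above the floor, so smaller or dimmer differences were not covered. Robust SDs came from the median absolute deviation within 20 equal bins of signal. The number of arrays limits the precision.

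The members and lists were chosen with earlier results of these data known. Every member was named. Of the other junction genes, the rule named those at least 1.5-fold apart and above both floors and the 2 brightest of each list. Jam3, Cldn5, Cdh5, Ppl, Evpl and the markers other than the 2 brightest of each list were chosen after their values were seen. Alternatives were other floors, scalings and probe set rules. One more, without _s_at and _x_at probe sets, was chosen after seeing the data. Listed genes with no named probe set were not analysed here.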

Additional observations from a re-analysis of the deposited data

How the results depend on the processing

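No paired analysis was possible because each genotype had 1 array, and for the same reason no replicate could be left out. Rescaling to the hybridization controls moved every summary that follows. The members' median went to 0.22, and 29 members were above 0. There, 4 members were higher by at least 1.5-fold and 0 were lower by as much. The medians went to 0.16 for claudins, 0.17 for desmosome genes, 0.20 for adherens junction genes, 0.23 for polarity genes, 0.41 for other tight junction proteins and 0.031 for Epcam and the matriptase system. The rescaling raised every probe set by the same amount, which was larger than the spread between probe sets (0.21). Spint2 rose further, from -0.30 to 0.26, because its other probe set became the brightest. With the floor at the 75th percentile, 1 member was at least 1.5-fold lower and the polarity median was -0.094. A median ratio of 0 for all genes left 5 members at least 1.5-fold lower. Quantile normalization, where that other Spint2 probe set was also the brightest, gave a median of -0.17 for Epcam and the matriptase system. Averaging probe sets gave 0.016 for other tight junction proteins. Leaving out _s_at and _x_at probe sets, an alternative chosen after seeing the data, gave 0.17 for polarity genes and -0.20 for Epcam and the matriptase system. Cldn1, Pkp1 and Dsp, at least 1.5-fold apart, kept their sign under every alternative run. Cdh3 did so too, except that it was below the floor and gave no value at the 75th percentile. Dim members such as Cdh3, Dsc2, Cldn23 and Pard6a lie in bins where the spread of all genes is wide, at robust SDs of 0.39 to 0.44.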
